A study of Mus musculus with 8 samples.

Results

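The comparison described here set mouse embryonic stem cells (mESCs) with both Setdb1 loss and G9a/GLP inhibition against mESCs with the inhibition alone. Its members were the libraries labelled Setdb1_KO_UNC, replicates 1 and 2, and Setdb1_UNC, replicates 1 and 2, which made 4 of the 8 RNA-seq libraries of the series. All 8 came from the Setdb1 conditional KO mESC line #33-6, grown on gelatin with LIF. The UNC group received 2 µM UNC0642, a small-molecule inhibitor of G9a and GLP, for 3 days and no 4-OHT, and it is called UNC0642-treated mESCs below. The KO_UNC group, called UNC0642-treated Setdb1 KO mESCs, received 800 nM 4-hydroxytamoxifen (4-OHT), which activates the Cre that deletes Setdb1, and then 2 µM UNC0642 for 3 days. Its sample labels give 2 days of 4-OHT before the inhibitor, while the growth text gives 5 days for the depletion as a whole. The other 4 libraries were WT (untreated cells of the same line) and Setdb1 KO (800 nM 4-OHT for 5 days), and they were used only to set the same loss without the inhibitor beside it. Because 1 line was used and the UNC0642-treated mESCs had no 4-OHT, an effect of 4-OHT or of Cre cannot be told apart from the loss of Setdb1. Between the 2 settings, any difference in 4-OHT exposure of the KO groups cannot be told apart from an effect of the inhibitor.

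SETDB1 trimethylates lysine 9 of histone H3 (H3K9) and is brought to endogenous retroviruses and to selected genes by KRAB zinc finger proteins and their partner TRIM28. G9a (Ehmt2) and GLP (Ehmt1) form a heterodimer that places mono- and dimethylation on the same residue over broad domains. In mESCs both systems are known for holding transposable elements (TEs), germline genes and genes of the early embryo silent, and UNC0642 blocks the catalytic site of G9a and GLP without removing the proteins.

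The libraries held between 11702590 and 26807807 counts over 24062 genes and 1153 TE subfamilies, and 15313 genes and 932 subfamilies were deep enough to test. The replicate 1 library of UNC0642-treated Setdb1 KO mESCs was the shallower of its pair (11897456 against 26250060 counts). All 8 mESC markers, such as Pou5f1 and Nanog, were detected in every library, and their summed level was 4915 and 4082 CPM (counts divided by library size, with TMM scaling) in the UNC0642-treated mESCs and 3747 and 5766 after Setdb1 loss. Summed levels of 20 fibroblast markers were 38.1 and 48.5 CPM before and 33.7 and 43.7 CPM after the loss, and those of 29 trophoblast markers were 78.2 and 102 CPM before and 96.3 and 59.4 CPM after. The fibroblast marker Lum, a collagen-binding proteoglycan, was the only one of these markers called (count ratio 89.3, 95% interval 15.5 to 3578, 1 count in the UNC0642-treated libraries).

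The targeted gene itself was measured first. Setdb1 (chr3:95323525-95357202, minus strand, GRCm38) stood at 130 and 86.3 CPM in UNC0642-treated mESCs and at 61.1 and 34.1 CPM in UNC0642-treated Setdb1 KO mESCs. Both KO libraries lay below both controls, as in 17.6% of all tested genes. Setdb1 fell by 1.21 on the log2 scale (SE 0.27, adjusted p = 0.0437, edgeR), which is 2.31-fold. The call was lost without the replicate block, with RLE or genes-only TMM scaling and without any one of the 4 compared libraries, where the log2 difference stayed between −0.93 and −1.50. A gene-level count does not separate the deleted exons from the rest, so the remaining counts are not a measure of intact message. Of the other H3K9 methyltransferases none passed the test: the log2 differences were −0.27 for Setdb2, −0.08 for Ehmt1, −0.43 for Ehmt2, 0.20 for Suv39h1 and 0.30 for Suv39h2.

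More features rose than fell after Setdb1 loss under the inhibitor. At an adjusted p under 0.05, 445 genes rose (2.91% of those tested) and 135 fell (0.882%), and 175 TE subfamilies rose (18.8%) while none fell (0%). No subfamily fell by DESeq2 either, and 1 was lower at an unadjusted p under 0.05 in edgeR (0.107%). Among the genes that rose, 217 did so more than 10-fold (1.42%), against 11 of those that fell (0.0718%), and 35 subfamilies rose more than 10-fold (3.76%). The median log2 fold change was −0.06 over all tested genes and 0.71 over all tested subfamilies, and scaling to total counts in place of TMM lowered both by about the same amount, to −0.27 and 0.50. The counts rested on few libraries. Fewer genes rose when UNC replicate 1, UNC replicate 2, KO_UNC replicate 1 or KO_UNC replicate 2 was left out, and more without WT replicate 1 or 2. The WT libraries were not compared here, but they enter the expression filter, the scaling, the replicate term and the shared estimate of the spread. The number that fell was 5, 10, 33 and 6 without the same 4 compared libraries and 361 and 367 without the WT ones, and the subfamilies that rose were 69, 59, 96 and 78 without the 4 compared ones.

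TEs took up 5.46% and 3.93% of all counts in UNC0642-treated mESCs and 17.1% and 11.4% after Setdb1 loss. Of the 175 subfamilies that rose, 130 were long terminal repeat (LTR) retrotransposons, the largest class with 571 of 932 tested, and 38 were LINEs, of 144. By share LINEs lay above the LTR class, and 18.8% of all tested subfamilies rose. The LTR families differed, with 34.4% of ERVK, 23.3% of ERV1, 12.6% of MaLR and 1.06% of ERVL rows rising, beside 29.9% of the L1 rows. Of 159 DNA transposon subfamilies 3 rose, and none of 35 SINE subfamilies did. Among these 3, MER121 went from 1.41 and 0.43 CPM in UNC0642-treated mESCs to 53.3 and 34.6 CPM after Setdb1 loss. Its log2 fold change was 5.76 (SE 0.43, adjusted p = 0.000437, edgeR), and no alternative setting removed its call. Charlie2b (2.46) and Charlie1 (1.58) rose by less, and the median over all tested DNA transposon subfamilies was 0.22. Within the LTR class, 47 of 113 rows of internal (coding) parts rose (41.6%, median log2 fold change 1.26), beside 83 of the other 458 rows (18.1%, median 0.86). A subfamily row sums reads over all its copies, and TEtranscripts shares multiply mapped reads among related subfamilies, so neighbouring rows are not independent and no single copy is measured.

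IAP elements, an active mouse retrovirus-like family, took 0.0527% and 0.0452% of counts before and 1.14% and 0.879% after the loss, 21.6 and 19.5 times as much in replicates 1 and 2. In all, 23 of 25 IAP rows rose, with a median log2 fold change of 2.89. The count was 15, 12, 18 and 16 without UNC replicate 1, UNC replicate 2, KO_UNC replicate 1 and KO_UNC replicate 2 in turn. IAPEz-int, the internal part of full-length IAPs, stood at 426 and 267 CPM and then at 12421 and 7093 CPM, a log2 fold change of 4.81 (SE 0.38, adjusted p = 0.000461, edgeR). The groups were far apart, and IAPEy-int, at 6.58 and 4.67 against 496 and 511 CPM, showed a still wider gap with a log2 fold change of 6.48.

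The MMERVK10 and RLTR10 group gained most in share among the groups examined, 48.1-fold in replicate 1 and 40.2-fold in replicate 2, from 0.0170% and 0.0155% to 0.819% and 0.622% of counts. Of its 13 rows 11 rose (median 3.07), and 7 without UNC replicate 2. MMERVK10C-int, a class II endogenous retrovirus, went from 96.3 and 47.4 CPM to 8591 and 5192 CPM (log2 fold change 6.61, SE 0.48, adjusted p = 0.000437). Both libraries of UNC0642-treated Setdb1 KO mESCs were above both controls, as the rule for naming this row required. Over all tested subfamilies 45.2% were. RLTR10C, an LTR of this group, rose by 4.15 on the log2 scale.

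MMERGLN-int and its LTRs belong to a class I (gammaretrovirus-like) family. MMERGLN-int counts were 625 and 692 CPM in UNC0642-treated mESCs and 26184 and 16620 CPM in UNC0642-treated Setdb1 KO mESCs, above the other retroviral rows described here. Its log2 fold change was 5.00 (SE 0.31, adjusted p = 0.000192), that of MMERGLN_LTR was 4.94, and that of RLTR1B, at 17.8 and 11.3 against 482 and 355 CPM, was 4.86 (SE 0.26, adjusted p = 0.000129). VL30 rows, a related class I group, rose in 5 of 5 cases (median 2.42), among them MMVL30-int (2.42) and RLTR6-int (3.02). Without UNC replicate 2, or without the block, 2 of the 5 passed, and 3 without UNC replicate 1 or either KO_UNC replicate.

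ETn/MusD rows rose in 10 of 12 cases (median 2.52), and their share of counts was 5.48 and 5.50 times higher in replicates 1 and 2. Of these rows 6 passed without UNC replicate 2. ETnERV-int, an internal part of this group, went from 404 and 281 to 3693 and 2227 CPM (log2 fold change 3.10). Young LINE-1 elements also rose: all 6 L1Md rows rose (median 2.85), with shares of 0.419% and 0.339% before and 3.99% and 1.90% after. L1Md_A stood at 414 and 266 CPM and then at 5111 and 1759 CPM (log2 fold change 3.18, SE 0.31, adjusted p = 0.00107). The 2 libraries of UNC0642-treated Setdb1 KO mESCs differed from each other by more than those of the controls, and without the replicate block none of the 6 L1Md rows passed.

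MERVL, the class III family whose LTR MT2_Mm drives genes of the two-cell embryo, gave a single call. Of 7 MERVL rows only MT2C_Mm passed the test (log2 fold change 1.21, adjusted p = 0.0491). No row passed without the block, with total count scaling or without any one library other than WT, whereas 2 passed with only the 4 compared libraries, 3 in DESeq2 and 3 without either WT replicate. MERVL-int read 5520 and 2234 CPM in UNC0642-treated mESCs and 11086 and 4363 CPM after Setdb1 loss, a log2 difference of 0.99 (SE 0.62, adjusted p = 0.442). The replicate 1 control lay above the replicate 2 KO library, so the groups overlapped, while within each replicate number the KO library was higher, by 1.01 and 0.97 on the log2 scale. In WT mESCs the same row read 97.8 and 270 CPM and in Setdb1 KO mESCs 1916 and 709 CPM. Among the remaining groups, 11 of 87 MaLR rows rose, a smaller share than the 18.8% of all subfamilies, including ORR1A1-int at 3.14. The MaLR count was 1 without either UNC replicate, 4 without KO_UNC replicate 1, 3 without KO_UNC replicate 2 and 0 without the block. The abundant SINE rows B3 (0.14) and B2_Mm2 (0.25) did not pass. GSAT_MM, the major satellite of pericentric heterochromatin, rose by 3.55 (adjusted p = 0.0259) from 156 and 10.2 to 631 and 260 CPM, with controls that lay far apart, and was not called without the block, either UNC replicate or KO_UNC replicate 2.

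**Figure D1:**
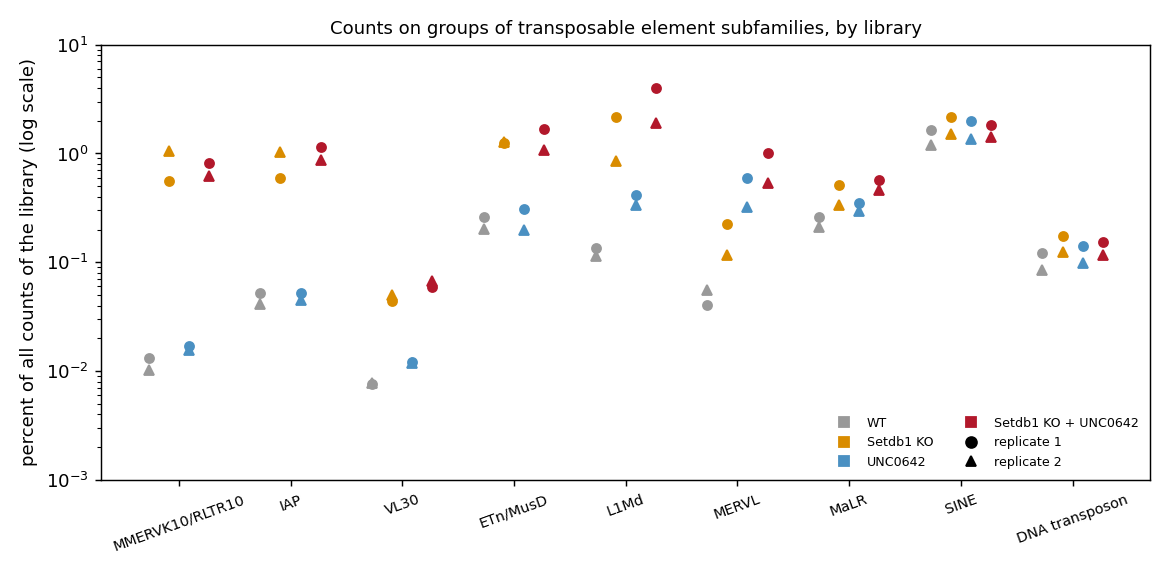
Percent of all counts in a library (log axis) that fell on each group of TE subfamilies, for the 8 libraries, with color for the condition and circles and triangles for replicates 1 and 2. In the MMERVK10/RLTR10, IAP, VL30, ETn/MusD and L1Md groups both libraries of UNC0642-treated Setdb1 KO mESCs lie above both of UNC0642-treated mESCs, while for MERVL and SINE the 2 conditions overlap.

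Germline genes gave more calls than any other gene list examined, and this list also had the most tested genes. Of 48 tested, 18 rose (37.5%, beside 2.91% of all tested genes) and none fell, with a median log2 fold change of 1.33. By share of tested genes the list did not lead: 37.5% of oocyte Nlrp genes, 37.9% of p53 list genes and 57.1% of Clec2 and Klrb1 genes rose. The promoters of the 3 with an E-box among the 4 of smallest p are printed below with that hexamer, CACGTG, in capitals, because this motif is shared by most of the germline genes that rose. Each is the 250 bases before the RefSeq start site on GRCm38.p6, read 5′ to 3′ on the gene's strand: Slc25a31 from chr3:40708621-40708870 (plus), Mael from chr1:166238745-166238994 (minus) and Taf7l from chrX:134476491-134476740 (minus).

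Slc25a31: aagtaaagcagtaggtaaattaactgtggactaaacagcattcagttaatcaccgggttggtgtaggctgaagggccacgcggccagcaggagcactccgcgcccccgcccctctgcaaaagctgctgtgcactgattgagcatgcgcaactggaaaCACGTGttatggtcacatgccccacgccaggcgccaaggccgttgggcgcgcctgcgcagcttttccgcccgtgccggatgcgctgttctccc
Mael: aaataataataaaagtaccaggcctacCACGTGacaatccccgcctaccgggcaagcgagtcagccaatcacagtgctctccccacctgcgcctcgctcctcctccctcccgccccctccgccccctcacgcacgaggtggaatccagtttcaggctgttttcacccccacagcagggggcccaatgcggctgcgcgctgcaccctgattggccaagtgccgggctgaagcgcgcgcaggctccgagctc
Taf7l: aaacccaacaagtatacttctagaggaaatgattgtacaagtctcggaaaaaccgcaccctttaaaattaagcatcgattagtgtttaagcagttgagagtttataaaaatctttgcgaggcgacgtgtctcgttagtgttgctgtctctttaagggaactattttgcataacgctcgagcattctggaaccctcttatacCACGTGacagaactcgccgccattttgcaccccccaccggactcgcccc

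The first base of the hexamer lay 93 bases before the start site in Slc25a31, 223 in Mael and 49 in Taf7l. Across the germline genes that rose and had a promoter in the table, 10 of 17 held CACGTG (58.8%): Ddx4, Mael, Taf7l, Sycp1, Sycp3, Stk31, Slc25a31, Hormad1, Mov10l1 and Fkbp6. It was found in 5 of 26 germline genes that did not pass the test (19.2%), in 31 of 356 of all genes that rose (8.71%) and in 6.86% of the 27025 genes of the promoter table. The hexamer is its own reverse complement, so 1 search covers both strands. GGCGGGA, searched on both strands as an E2F-like motif, was in 3 of the same 17 promoters (17.65%) and in 11.03% of all promoters. Of the tested genes 78.5% had a promoter in the table, under the 80% set for a background, so that share is void as one; among those 12020 genes CACGTG was in 9.55% and GGCGGGA in 19.7%, both above the shares over the whole table. A match describes letters in the window, not binding.

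Slc25a31, the ADP/ATP carrier of male germ cells, stood at 3.29 and 4.49 CPM in UNC0642-treated mESCs and at 34.9 and 53.4 CPM in UNC0642-treated Setdb1 KO mESCs (log2 fold change 3.49, SE 0.28, adjusted p = 0.000478). Mael, a factor of piRNA-mediated transposon silencing, went from 4.79 and 5.25 to 38.2 and 38.0 CPM (2.92, adjusted p = 0.000698). Taf7l, a germ cell paralog of a TFIID subunit, went from 3.20 and 3.45 to 29.2 and 63.8 CPM (3.75, adjusted p = 0.00121). In all 3 genes the KO libraries were several times above both controls. Over all tested genes both KO libraries lay above both controls, by any amount, in 14.5%. Tex101, a sperm surface protein gene whose window held no CACGTG, rose from 0.611 and 1.08 to 7.57 and 25.0 CPM (4.14). Stk31, a testis-expressed kinase gene, rose by 3.98, Sycp3, of the synaptonemal complex, by 3.04 and Ddx4, the germ cell helicase Vasa, by 1.16. Members that did not pass included Tex19.1 (1.90, adjusted p = 0.056) and Stra8, the retinoic acid-induced gene of meiotic entry (−1.13, adjusted p = 0.425). The count of 18 was 7 without UNC replicate 1, 5 without UNC replicate 2, 11 without KO_UNC replicate 1 and 9 without KO_UNC replicate 2.

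Clec2 and Klrb1 genes, which encode C-type lectin ligands and receptors, had the highest median over tested members of the gene lists. Of 7 tested, 4 rose (median log2 fold change 6.14), all of them in the natural killer complex on chromosome 6, while the listed Clec2l lies elsewhere on that chromosome (chr6:38663069-38680864). The expression filter kept only these 7 of 20 counted genes. Clec2g, Clec2f and Klrb1a had few counts in the WT and UNC0642-treated mESCs and passed it through the libraries without Setdb1. With no filter 4 of 16 rose and the median was 3.3, so median and share depend on which members were tested. Clec2g (chr6:128934381-128984707) was near the detection limit at 0.329 and 0.324 CPM in UNC0642-treated mESCs and stood at 128 and 59.8 CPM in UNC0642-treated Setdb1 KO mESCs (8.04, SE 0.42, adjusted p = 0.000129). Clec2f, annotated as a transcribed pseudogene, had 2 and 3 counts in the controls, and its count ratio was 350 (95% interval 150 to 1080). Klrb1a, with 1 count in each control, had a ratio of 67.3 (95% interval 18.2 to 563). Clec2i differed in that the controls already had 9.07 and 6.11 CPM, and it rose to 77.1 and 84.4 CPM (3.42, SE 0.29, adjusted p = 0.000517). In WT mESCs Clec2i read 0.870 and 0.974 CPM.

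The start sites of Clec2i, Clec2g, Gm15987 and Clec2f lay between positions 128887588 and 129014112 of chromosome 6. Such runs were recurrent: 70 of 437 placed genes that rose had another within 100 kb of their start site (16.02%), beside 612 of 14708 other tested genes (4.16%). For the genes that fell the figures were 6 of 135 (4.44%) and 2.84%. Runs of at least 3 included Tra2a, Ccdc126, Fam221a and Stk31 on chromosome 6, the vanin genes Vnn3 and Vnn1 with Taar1 on chromosome 10, and Pramel3, Gm5128, Gm7903 and AV320801 on the X chromosome. Read sharing between near-identical copies and transcripts that run into a neighbour both count toward these figures and were not tested. On the X chromosome 40 of 589 tested genes rose (6.79%), the fewest being 0.802% on chromosome 19 and 0.819% on chromosome 11.

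Several genes rose from near silence. Mmp1b, an interstitial collagenase gene, had 4 and 2 counts in UNC0642-treated mESCs and 100 and 57.5 CPM after Setdb1 loss (count ratio 562, 95% interval 258 to 1534). Mmp12, the macrophage elastase gene next to it, went from 0.987 and 1.76 to 158 and 319 CPM (log2 fold change 7.41, SE 0.47, adjusted p = 0.000219). The annotated ends of these 2 genes overlap on opposite strands (chr9:7368239-7388047 and chr9:7344381-7369499), so reads in the overlap could count for either. 2010005H15Rik, of the stefin A protease inhibitor cluster, had no count in either control and stood at 88.7 and 53.6 CPM in the KO libraries, at least 572-fold higher (against 3 counts per library). Cd209c, a C-type lectin gene related to DC-SIGN, went from 2.26 and 2.59 to 390 and 441 CPM (7.44, SE 0.49, adjusted p = 0.00026). Cyp4a12b, a fatty acid hydroxylase gene, had 0 and 3 counts before and 325 and 1381 after (count ratio 758, 95% interval 259 to 3678). Mep1b, which encodes the meprin beta protease, started higher, at 6.77 and 5.90 CPM, and reached 126 and 122 CPM (4.29).

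The X-linked Prame-like copies formed another block. AV320801 went from 1.22 and 2.05 to 33.2 and 52.6 CPM (4.72), Gm5128 from 0.799 and 1.15 to 31.6 and 52.6 CPM (5.42) and Pramel3 from 0.799 and 1.01 to 22.2 and 34.1 CPM (4.94, adjusted p = 0.000699). The copies rose in parallel and are close paralogs, so their counts may be parts of one signal. Among 13 tested genes of the Prame and Oog list 2 rose (15.4%, beside 2.91% of all tested genes, median 0.74). Pramel3 was 1 of these 2, while AV320801 and Gm5128 were not on the list. Of 8 oocyte Nlrp genes 3 rose (median 1.85): Nlrp4c, from 18.9 and 6.22 to 186 and 68.4 CPM (3.36, SE 0.41, adjusted p = 0.00276), Nlrp4a (2.17) and Nlrp4e, which had 5 and 2 counts in the controls (count ratio 11.4, 95% interval 5.22 to 29.6). Nlrp4f was at −0.36 and did not pass. Of the 8 Nlrp genes 1 passed when any one of UNC replicates 1 and 2 or KO_UNC replicates 1 and 2 was left out.

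Two-cell stage genes gave 2 calls in this comparison. Of 32 tested, Tdpoz5 (3.55) and Usp17lb rose (6.25%, beside 2.91% of all tested genes) and none fell, with a median log2 fold change of 1.12. Usp17lb, a deubiquitinase copy gene, went from 54.2 and 22.0 to 135 and 79.6 CPM (1.57, adjusted p = 0.0328). Zscan4c, the telomere-regulating marker of the two-cell-like state, read 433 and 133 CPM before and 725 and 288 CPM after (0.89, adjusted p = 0.5), and its groups overlapped. The Zscan4 and Usp17l copies are near identical, so the values of single copies are uncertain. The number of calls in this list depended on the libraries fitted. It was 16 when only the 4 compared libraries were fitted. The number was also higher without WT replicate 1 or 2, and lower when any of the 4 compared libraries was left out.

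Of 29 tested p53 target and cell death genes 11 rose and none fell (median 1.00). Plk2, a stress-induced kinase gene, went from 30.4 and 12.3 to 119 and 93.2 CPM (2.42, SE 0.30, adjusted p = 0.00289). Trp53inp1, which encodes a pro-apoptotic p53 partner, went from 285 and 108 to 1104 and 837 CPM (2.46, adjusted p = 0.00549), and Btg2, an antiproliferative gene, from 14.003 and 12.8 to 40.7 and 64.1 CPM (1.94). All 3 were higher in both KO libraries than in both controls, as were 14.5% of all tested genes. Cdkn1a, which encodes the cell cycle inhibitor p21, read 28.9 and 14.9 CPM before and 68.1 and 143 CPM after (2.22, adjusted p = 0.0455), and Mdm2, which encodes the ubiquitin ligase for p53, rose by 1.22 (adjusted p = 0.0471). Ccng1 (2.14), Phlda3 (2.00), Eda2r (2.27), Aen (1.34) and Casp8 (2.38) also rose. Trp53 itself was at 0.19 (adjusted p = 0.83).

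Among 9 p53 list genes that rose and had a promoter in the table, 1 held the spaced pair CATGNNNNNNCATG, which is 0.570% of all promoters in frequency. This was Cdkn1a, which had 2 promoter windows, and a gene counted if any of its windows held the pair. The window at chr17:29090729-29090978 (plus strand, GRCm38.p6) was picked from the 2 because it holds the pair, in capitals. There the pair begins 48 bases before the start site of that window. The pair is its own reverse complement, so 1 search covers both strands.

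Cdkn1a: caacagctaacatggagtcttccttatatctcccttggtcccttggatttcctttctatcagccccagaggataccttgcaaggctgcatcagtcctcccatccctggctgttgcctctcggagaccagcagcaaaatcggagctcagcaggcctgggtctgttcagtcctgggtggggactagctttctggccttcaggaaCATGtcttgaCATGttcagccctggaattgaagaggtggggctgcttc

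The count of p53 list genes that rose was 4 without UNC replicate 1, 1 without UNC replicate 2, 8 without KO_UNC replicate 1 and 1 without KO_UNC replicate 2, and 0 without the replicate block, while the median log2 fold change of the list stayed between 0.80 and 1.22 under these and the other settings tried.

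**Figure D2:**
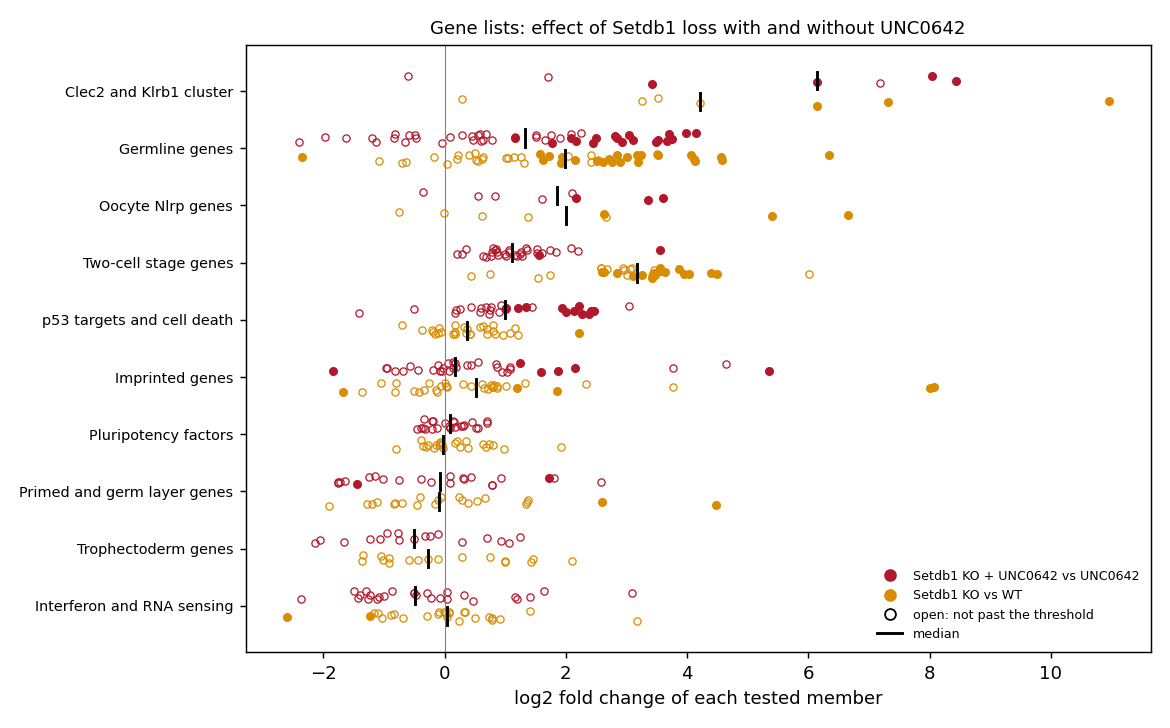
Log2 fold change (x axis) of every tested member of 10 gene lists for Setdb1 loss with UNC0642 (red) and without it (orange); filled points passed the adjusted p threshold and black bars are medians. The p53 list has 11 filled points with the inhibitor and 1 without, the two-cell list has 2 with and 17 without, and pluripotency factors have none in either.

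The other lists gave fewer calls than the germline and p53 lists, and their medians stand beside −0.06 over all tested genes. None of 23 pluripotency factors passed (median 0.09), nor did any of 17 trophectoderm genes (−0.51), 26 interferon and RNA sensing genes (−0.49), 8 Rhox genes (−0.65) or 20 protocadherins (−0.42). Among 22 genes of primed cells and germ layers Otx2, a transcription factor of the epiblast, rose (67.6 and 25.8 to 118 and 155 CPM, log2 fold change 1.73, adjusted p = 0.045) and Gata4, an endoderm factor, fell by 1.44 (adjusted p = 0.0484). Both calls lay close to the threshold, and Gata4 lost its call in 10 and Otx2 in 6 of the alternative settings, among them the fit without the block and those without UNC replicate 1, UNC replicate 2 or KO_UNC replicate 2. Of 34 imprinted genes 5 rose (14.7%, beside 2.91% of all tested genes). They were Rian, a maternally expressed non-coding RNA of the Dlk1-Dio3 region (5.35), Cdkn1c (2.14), Inpp5f (1.87), Kcnq1ot1 (1.598) and Impact (1.24). The count was 2 without UNC replicate 1, 0 without UNC replicate 2, 1 without KO_UNC replicate 1, 2 without KO_UNC replicate 2 and 0 without the block. Phlda2, a placental growth regulator, fell by 1.84, and Peg10 was at −0.10. Of 21 genes for partners of H3K9 methylation only 2810474O19Rik, now named Resf1, rose, from 209 and 143 to 1174 and 602 CPM (2.28, adjusted p = 0.00363), and Trim28 was at −0.21.

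Genes that fell did so by less. Sema3e, a guidance cue of vessels and axons, went from 17.9 and 19.8 to 2.91 and 3.86 CPM, 5.51-fold lower (log2 fold change −2.46, SE 0.31, adjusted p = 0.00342). Olig1, an oligodendrocyte lineage factor, went from 3.90 and 13.1 to 0.415 and 1.58 CPM (−3.05), and Gstm1, a glutathione transferase gene, from 14.1 and 18.95 to 2.70 and 3.20 CPM (−2.48). Both KO libraries lay below both controls in each of these genes, as the rule for naming them required. Over all tested genes 17.6% did so. Ly75, the DEC-205 endocytic receptor gene, went from 29.4 and 36.2 to 4.77 and 6.84 CPM (−2.50), Nid1, a basement membrane linker gene, from 113 and 101 to 31.4 and 23.8 CPM (−1.96) and Prkar2a, a regulatory subunit gene of protein kinase A, from 88.4 and 71.0 to 25.7 and 18.1 CPM (−1.88). The intracellular sorting receptor gene Sorl1 was lower by a log2 change of −1.52, the phosphodiesterase gene Pde4a by −1.97 and the amino acid transporter gene Slc7a6 by −1.68. The median over the 135 genes that fell was −1.86, against 3.21 over the 445 that rose.

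By gene type, 36 of 535 non-coding genes (6.73%) and 11 of 164 pseudogenes (6.71%) rose, beside 387 of 14308 protein-coding genes (2.70%). In bulk RNA a level averages over cells, so more cells with a transcript and more transcript per cell cannot be told apart.

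The same loss was next read without the inhibitor, in Setdb1 KO against WT mESCs, which share no library with the comparison above. There 429 genes rose (2.80%) and 80 fell (0.522%), and 189 subfamilies rose (20.3%) and none fell (0%, with none lower at an unadjusted p under 0.05 in edgeR and none by DESeq2). Of the 445 genes that rose with UNC0642, 280 were also called without it, 62.9% of these and 65.3% of the 429, and 440 of the 445 had the same sign. Their median log2 fold change was 3.21 with and 2.93 without the inhibitor, and 398 exceeded 2-fold without it. Of the 135 that fell, 36 were called (26.7%, and 45.0% of the 80) and 132 had the same sign, with medians of −1.86 and −1.09. TE subfamilies matched most closely: 154 of 175 were called in both (88.0%, and 81.5% of the 189), and all 175 had the same sign, as did most subfamilies, since 94.2% of those tested were positive without the inhibitor. Across all tested features the log2 fold changes of the 2 comparisons had a Pearson correlation of 0.772 for genes and 0.898 for subfamilies, a description over features that share libraries. The 2 replicates of the UNC0642 comparison correlated with each other at 0.607 for genes and 0.859 for subfamilies.

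**Figure D3:**
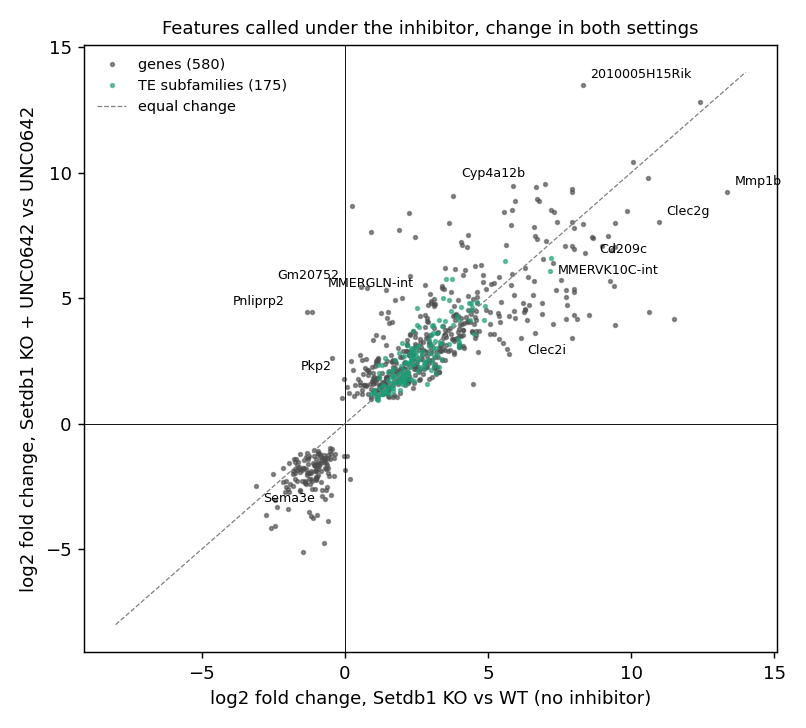
Log2 fold change with the inhibitor (y axis) against that without it (x axis) for the 580 genes and 175 TE subfamilies called with UNC0642; the dashed line marks equal change. Subfamilies (green) gather along the line, and Pnliprp2 (−1.14) and Pkp2 (−0.02) lie left of 0 on the x axis, with Gm20752 at 0.55. As the features were chosen on the y axis, values closer to 0 on the x axis follow in part from that choice.

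Whether the effect of Setdb1 loss differed between the 2 settings was tested as an interaction. By the labels 4-OHT was given for 5 days without the inhibitor and for 2 days before it. The interaction therefore cannot separate UNC0642 from a difference in 4-OHT exposure. No gene and no subfamily passed at an adjusted p under 0.05 in edgeR (0%). At an unadjusted p under 0.05 there were 127 genes with a more positive effect under UNC0642 (0.829%) and 241 with a more negative one (1.57%), and 9 (0.966%) and 2 (0.215%) subfamilies. DESeq2 called 3 genes more positive, Pnliprp2, Pkp2 and Gm20752, 4 more negative, Usp17le, Clec2i, Usp17la and Usp17lb, and no subfamily. Without WT replicate 2, edgeR called 20 genes and 2 subfamilies (MERVL-int and MT2_Mm) more negative.

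Pkp2, which encodes the desmosomal plaque protein plakophilin 2, read 57.6 and 35.7 CPM in UNC0642-treated mESCs and 193 and 129 CPM after Setdb1 loss (1.79, adjusted p = 0.00326), and it differed by −0.02 between Setdb1 KO and WT mESCs (interaction 1.82, unadjusted p = 0.000329 in edgeR). Pnliprp2, a pancreatic lipase-related gene, went from 0.658 and 0.216 to 17.1 and 3.82 CPM (4.44, adjusted p = 0.00698), beside −1.14 (adjusted p = 0.461) without the inhibitor. Both genes were thus high only in the 2 libraries of UNC0642-treated Setdb1 KO mESCs. MMERGLN-int, by contrast, rose in both settings, by 5.00 with and 3.43 without UNC0642 (interaction 1.57, unadjusted p = 0.00252), and so did IAP-d-int (3.94 and 2.53, unadjusted p = 0.00721).

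On the negative side, Usp17le was already up in the inhibitor-treated controls. Its level was 0.783 and 1.41 CPM in untreated WT mESCs and 53.4 and 35.9 CPM in UNC0642-treated mESCs, while the mESCs without Setdb1 had 29.2 and 22.4 CPM when left untreated and 73.5 and 42.3 CPM when given UNC0642. Its log2 difference for Setdb1 loss was 4.4001 without the inhibitor and 0.36 with it (adjusted p = 0.621), an interaction of −4.04 (unadjusted p = 3.31e-05, adjusted p = 0.537 in edgeR). Over the two-cell list the median interaction was −2.03, 30 of 32 genes were negative and 16 had an unadjusted p under 0.05. Over all 15313 tested genes the median was −0.04, with 8135 negative and 7178 positive. Without the inhibitor 17 of the 32 rose and none fell (median 3.18). Clec2i followed the same order, with 6.14 without and 3.42 with UNC0642 (interaction −2.71, unadjusted p = 0.000129).

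The p53 list lay on the other side: 24 of 29 interactions were positive with a median of 0.76, and 7 had an unadjusted p under 0.05. Without the inhibitor only Casp8 of this list rose (2.22, adjusted p = 0.013), with a list median of 0.38. Plk2 was at 1.08 there (adjusted p = 0.0823, interaction 1.34, unadjusted p = 0.00974). For germline genes the counts were 18 with and 24 without UNC0642, 16 of them shared, with 1 lower without it, and IAP rows were called in 23 and 21 of 25 cases. Germline interactions were negative in 38 of 48 genes and positive in 10, with a median of −0.58. At an unadjusted p under 0.05 in edgeR 9 were negative and 1 was positive. An effect called in one setting and not in the other is not shown to differ, since no interaction passed the adjusted threshold in edgeR.

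**Figure D4:**
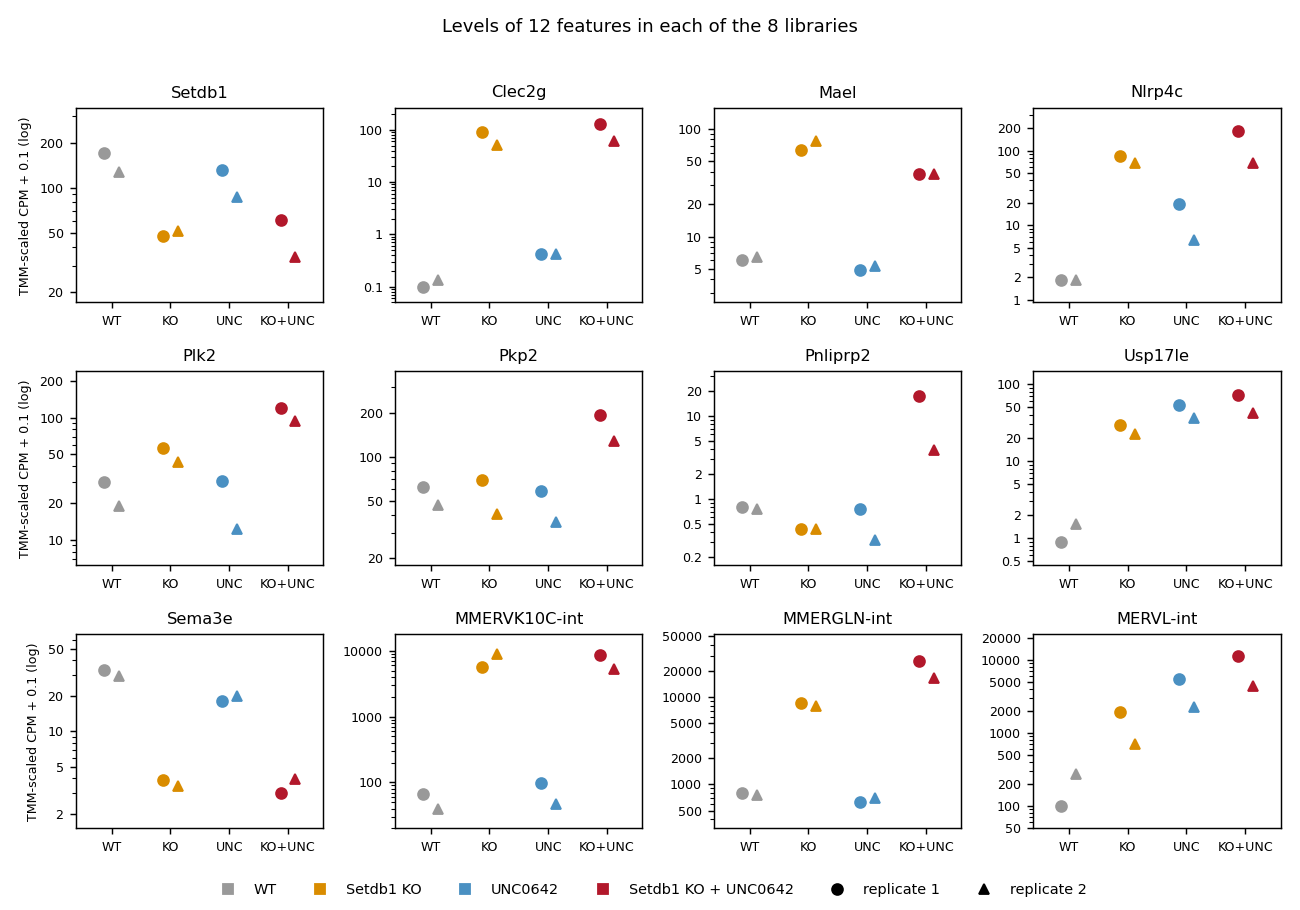
TMM-scaled CPM plus 0.1 (log axes, one panel per feature) of 12 features in the 8 libraries, with color for the condition and circles and triangles for replicates 1 and 2. Setdb1 and Sema3e are lower in both KO conditions, Clec2g, Mael and MMERVK10C-int are higher in both, Pkp2 and Pnliprp2 are high only with KO and UNC0642 together, and Usp17le and MERVL-int are higher in all 3 treated conditions than in WT.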

How the data were processed

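Poly(A) RNA-seq was compared between mESC libraries of 4 conditions with 2 biological replicates each. Per the labels and the study's methods, reads were trimmed with Trim Galore 0.3.7, mapped with TopHat2 to GRCm38, and counted by TEtranscripts over genes and TE subfamilies, and the authors deposited raw counts, 1 table per library. Whether counting used strand is not given in the sources used here. From these counts, edgeR 4.0.16 (R 4.3.3) fitted a quasi-likelihood model to all 8 libraries (TMM scaling, filterByExpr with a minimum count of 10, 1 coefficient per condition and the replicate number as a block, 3 residual degrees of freedom), with Benjamini-Hochberg adjustment over genes and subfamilies together and a threshold of 0.05. Printed CPM are scaled by TMM factors, fold changes are on the log2 scale with a prior count of 0.125, and SE are from the same fit. P-values measure the spread between these samples.

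Replicate deviations from their condition means correlated for the same number across all 6 pairs of conditions (r = 0.285 to 0.663), so the number was kept as a block. The members and all gene and TE lists were chosen with earlier results of these data known. The names printed were chosen by a rule: the H3K9 methyltransferases, the features of smallest p without overlap between groups (12 genes higher and 10 lower, 10 subfamilies higher), those of smallest interaction p, 4 called and 2 uncalled members per list, and 3 genes the study shows, of which Gm4971 was at 1.62 (adjusted p = 0.13) and Trpd52l3 at 1.64 (adjusted p = 0.405). Other genes are named for completing a list, a run of neighbours or a motif group, after their values were seen. Of the lists, 6 H3K9 methyltransferases gave 1 fall (Setdb1), and 11 demethylase genes, 12 DNA methylation genes and 17 fibroblast genes gave no rise apart from Lum. Where a control group had few counts, ratios of summed counts carry exact 95% intervals for counting error only. Values of 1 listed gene are not reported here. Simulated counts were used to test the fits. Sequences came from RefSeq promoters on GRCm38.p6, and 2 subfamily name patterns were dropped because they also matched other families. DESeq2 1.42.0, other scalings, filters, thinned counts, the fit without the block and leaving out each library were the alternatives.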

Additional observations from a re-analysis of the deposited data

Results flagged for a closer look

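For 2 of the named genes the groups did not overlap in either setting and moved in opposite directions with and without UNC0642. Of all tested genes, 14.5% lay higher and 17.6% lower without overlap under the inhibitor, and 15.4% and 13.9% without it. The share with opposite directions was not counted. Pnliprp2 was higher after Setdb1 loss with the inhibitor in both replicates (log2 fold change 4.44) and lower without it (−1.14), a difference of 5.58. The lower value was not called (adjusted p = 0.461, edgeR) and rests on 8 and 6 counts in Setdb1 KO and 8 and 18 in WT mESCs. Zfp518b was lower with the inhibitor (−0.89) and higher without it (0.56), a difference of −1.45. Neither difference passed the interaction test in edgeR after adjustment over all features (adjusted p = 1 for both), and neither Zfp518b value was called on its own (adjusted p = 0.065 with the inhibitor). Compared only within replicate number, with overlapping groups, Tubb3 (0.62 with and −0.72 without the inhibitor) and Adar (−0.50 and 0.32) also had opposite signs in both replicates.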

How the results depend on the processing

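Without the replicate block the numbers called for Setdb1 loss under UNC0642 were 133 genes higher, 6 lower and 50 subfamilies higher, and for loss without the inhibitor 135, 1 and 46. With only the 4 compared libraries they were 744 genes higher and 394 lower under UNC0642, and 182, 6 and 76 (genes higher, genes lower, subfamilies higher) without it. DESeq2 on all 8 libraries called 756, 431 and 282 under UNC0642 and 748, 305 and 306 without it, and 3 positive and 4 negative gene interactions. DESeq2 on the 4 libraries called 316 genes lower under UNC0642, total count scaling 266 and no expression filter 238, and the last gave 1 negative gene interaction (Usp17le). Above 10-fold there were 217, 11 and 35 under UNC0642 and 206, 2 and 29 without it. Leaving out each library in turn gave 97 to 731 genes higher, 5 to 367 lower and 59 to 229 subfamilies higher under UNC0642. For loss without UNC0642 the ranges were 242 to 426 genes higher, 16 to 180 lower and 99 to 158 subfamilies higher, where leaving out KO replicate 1 gave 242, 16 and 99, WT replicate 1 gave 180 lower, UNC replicates 1 and 2 gave 33 and 34 lower, and UNC replicate 2 gave 125 subfamilies. Negative interactions ranged from 0 to 20 genes and 0 to 2 subfamilies, the highest without WT replicate 2. The causes were not tested. Of the 86 named features that were called, 41 stayed called without the block and 47 to 86 when 1 library was left out, and no named direction reversed under any setting. The shallower KO_UNC replicate 1 limits the lowest genes most: 3 counts there are 0.311 CPM.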
